A study of Mus musculus with 6 samples.

Results

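Duxbl1, Duxbl2 and Duxbl3 are neighbouring, near-identical mouse genes on chromosome 14 that encode a double homeobox protein. They were taken as all transcripts whose gene symbol in the deposited files is one of these names, which gave 3 of 52550 genes and 18 of 131100 transcripts, 6 per gene. They were chosen because Duxbl2 was higher in the Eed mutant tumours of these same libraries, so their levels in the 2 groups are given as a description, with no test. RNA-seq was made from 3 mouse medulloblastomas labelled wild type for Eed and 3 labelled mutant. The sources used here do not give the mutant allele, the tumour model, the age or the strain, and nothing in the labels says that the replicates came from separate animals. Medulloblastoma is a tumour of the cerebellum, and EED belongs to the core of Polycomb repressive complex 2, which methylates histone H3 at many developmental genes that are kept silent.

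Double homeobox proteins bind DNA through a pair of homeodomains, and their best known member, DUX, switches on the genes of the early cleavage embryo. Duxbl is a relative of Dux that is known from germ cells, from developing skeletal muscle and from the early embryo, where DUX induces it and its product acts against the DUX programme.

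The libraries were of nearly equal depth, with 26186236 to 26425111 estimated counts each. Eed RNA was present in all 6 libraries, at 30.1 to 43.8 CPM (counts scaled to a common library size) in wild type against 30.7 to 36.8 CPM in the mutants, and the groups overlapped. Granule cell precursors are a cell of origin of medulloblastoma. All 10 listed markers of the granule cell lineage and of medulloblastoma passed the expression filter. Their summed levels were 4127 to 4913 CPM in wild type against 3725 to 4606 CPM in the mutants. Of these markers, 3 had all mutants above all wild types and 1 had all below, beside 13.1% and 11.9% of all 19145 genes tested. Atoh1, the defining transcription factor of granule cell precursors, had 75.3 to 127 CPM in wild type against 137 to 172 CPM in the mutants. The Hedgehog target Gli1 was likewise higher without overlap and Sfrp1, a secreted inhibitor of Wnt signalling, lower. Hhip, another Hedgehog target, was the only one of the 10 that passed DESeq2 (log2 fold change 1.11, adjusted p = 0.00157), and 0 passed edgeR. Over all 17679 genes with an adjusted p, DESeq2 called 2.96% higher and 2.26% lower. A gene level from pieces of tumour cannot tell fewer cells of a type from less RNA per cell.

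The 3 genes lie in the same direction on the plus strand, once in each copy of a repeated stretch of the chromosome. Their coordinates, in GENCODE M21 on GRCm38, are chr14:25978577-25990088 for Duxbl1 (ENSMUSG00000048502.14), chr14:26118349-26129763 for Duxbl2 (ENSMUSG00000072675.12) and chr14:26257962-26269436 for Duxbl3 (ENSMUSG00000072672.10). From start to start they are 139772 and 139613 bases apart. Duxbl2 lies within the annotated span of another homeobox gene of the same strand, Cphx3 (chr14:26082297-26235744). All 18 Duxbl transcripts matched M21 by identifier and by length.

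The full-length transcripts of the 3 genes (Duxbl1-201, Duxbl2-201 and Duxbl3-201, each of 5 exons) have one and the same coding sequence of 1053 bases, or 350 codons and a stop. Bases 272 to 571 of it, counted from the A of the start codon, are printed to show the second homeodomain and the point where the forms part, and because no read from the coding part of a full-length transcript can name its copy. The capitals mark coding exon 4, the last exon that is shared with a short, intron-retaining form of each copy (Duxbl1-203, Duxbl2-202 and Duxbl3-202). The short form has the first 417 coding bases in common with the full-length form and then reads on into the intron, where it ends after 201 codons. The bases tggtttcagaaccgg, which encode the core of the recognition helix of the second homeodomain, occur once, at positions 421 to 435. They begin 4 bases after the end of the shared part, in coding exon 5, which the short form lacks. Sequences are those of GENCODE M21 on GRCm38.
Duxbl full-length: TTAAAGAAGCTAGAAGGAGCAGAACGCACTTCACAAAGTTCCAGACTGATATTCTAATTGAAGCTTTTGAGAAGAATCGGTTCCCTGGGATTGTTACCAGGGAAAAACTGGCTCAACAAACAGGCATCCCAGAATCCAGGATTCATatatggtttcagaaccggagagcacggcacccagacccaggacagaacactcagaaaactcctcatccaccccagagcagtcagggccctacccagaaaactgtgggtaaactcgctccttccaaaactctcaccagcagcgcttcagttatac

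The only coding base by which the full-length or the short forms differ between copies lies in the retained intron of the short form. It is the substitution C481A, in which Duxbl1-203 is given first, Duxbl2-202 and Duxbl3-202 second, and positions are counted from the A of the start codon. It is at the first position of its codon and synonymous. The 61-base windows around it are shown because it is the place where a read from these open reading frames separates Duxbl1 from the other copies, with the base in capitals. They lie at chr14:25987647-25987707, chr14:26127227-26127287 and chr14:26266876-26266936.
Duxbl1-203: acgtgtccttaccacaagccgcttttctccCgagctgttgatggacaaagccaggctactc
Duxbl2-202: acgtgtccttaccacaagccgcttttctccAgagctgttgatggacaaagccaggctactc
Duxbl3-202: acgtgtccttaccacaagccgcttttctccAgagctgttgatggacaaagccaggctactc

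How far the copies can be told apart was measured in words of 31 bases, the default word length of kallisto, the program that made the counts. Duxbl1 had 198 words of its own among 4782. Duxbl2 had 0 of its own among 4828, so that every word of every Duxbl2 transcript also occurs in another copy. Duxbl3 had 339 of its own among 5167, of which 315 come from the 5′ part of a single short transcript, Duxbl3-206, and 24 from the 3′ end of Duxbl3-201. Together, Duxbl2 and Duxbl3 had 583 words that do not occur in Duxbl1, the 339 included, so Duxbl1 and the sum of the other copies are separated by more sequence than Duxbl2 and Duxbl3 are from each other. Only 15 of the 5365 words of the family occur in M21 transcripts of other genes.

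The full-length transcripts differ least. Duxbl1-201 and Duxbl2-201 aligned over 2256 bases with 1 mismatch, in the 5′ UTR, and with 10 and 56 unaligned bases. Duxbl3-201 is Duxbl2-201 with 24 further bases at its 3′ end and no mismatch over 2312 bases. Duxbl2-202 and Duxbl3-202 are identical over their whole length, as are Duxbl2-206 and Duxbl3-203, and the 3 noncoding transcripts Duxbl1-202, Duxbl2-205 and Duxbl3-205. Each such set received equal estimated counts in each library, a division that carries no information on the copies.

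**Figure D1:**
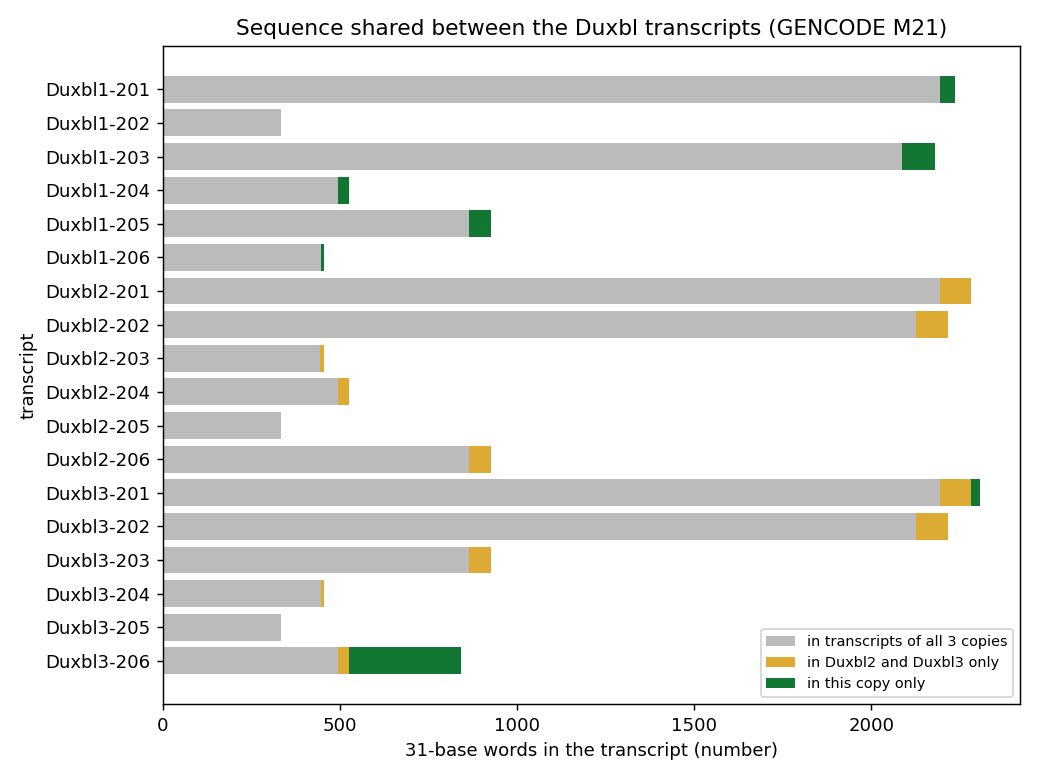
Number of 31-base words in each of the 18 Duxbl transcripts (bars), divided into words found in all 3 copies, in Duxbl2 and Duxbl3 only, and in 1 copy only. No Duxbl2 transcript has a word of its own, and only Duxbl3-206 has a large own part, with 315 words.

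Summed over the 3 copies, Duxbl RNA was higher in every mutant than in every wild-type tumour. The family had 809, 737 and 1122 estimated counts in wild-type replicates 1, 2 and 3 and 1401, 1332 and 1410 in mutant replicates 1, 2 and 3. In CPM these are 30.6, 27.9 and 42.6 against 53.8, 51.2 and 53.3, with means of 33.7 ± 7.85 and 52.8 ± 1.40 (SD, n = 3). The groups did not overlap, the mutants lay within a narrow range, and wild-type replicate 3 stood above the other wild types. The ratio of means was 1.57, and the fitted log2 fold change was 0.65 (SE 0.15). Of the 3 copies taken singly, 1 (Duxbl2) had all 3 mutants above all wild types, as had 13.1% of the 19145 genes tested, and 0 had all mutants below, as had 11.9%. These shares are background only, since the copies were chosen on this contrast.

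In TPM, which scales by transcript length, the family stood at 32.9, 29.2 and 45.9 in wild type against 57.0, 52.4 and 55.6 in the mutants. Its TPM was above that of 78.2% to 88.7% of the other genes with any count in the same library. Duxbl RNA was thus present in all 6 tumours, in the wild types too.

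The copies differed from each other in how the counts were divided. Duxbl2 had 324, 387 and 314 estimated counts in wild type against 833, 720 and 668 in the mutants. Its lowest mutant was above its highest wild type, with means of 12.9 ± 1.497 CPM and 28.3 ± 3.40 CPM (SD, n = 3), a ratio of 2.19 and a log2 fold change of 1.13 (SE 0.13). Duxbl1 had 186, 184 and 396 estimated counts in wild type against 429, 478 and 392 in the mutants. Wild-type replicate 3 of Duxbl1 lay within the mutant range, so the groups overlapped. The Duxbl1 means were 9.68 ± 4.66 CPM and 16.6 ± 1.77 CPM (SD, n = 3), with a log2 fold change of 0.77 (SE 0.31), which was 1.24 without wild-type replicate 3.

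Duxbl3 went the other way on counts. It had 299, 166 and 412 estimated counts in wild type against 139, 134 and 350 in the mutants, with means of 11.1 ± 4.68 CPM and 7.90 ± 4.60 CPM (SD, n = 3). The groups overlapped, since mutant replicate 3 was above wild-type replicates 1 and 2. The log2 fold change of -0.49 (SE 0.46) was about as large as its error. It was -1.08 without mutant replicate 3, -0.77 without wild-type replicate 2 and -0.15 without wild-type replicate 3, and it came to -0.27 and -0.26 without mutant replicates 1 and 2.

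The sign of the Duxbl3 difference depended on the unit. In TPM Duxbl3 stood at 15.2, 9.20 and 19.6 in wild type against 12.3, 12.4 and 20.3 in the mutants, and on the log2(TPM + 1) scale the difference was 0.05 (SE 0.30). In mutant replicates 1 and 2 most of the Duxbl3 counts fell on the short transcript Duxbl3-206, which weighs more per count in TPM than the long Duxbl3-201.

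Duxbl2 and Duxbl3 added together gave a smaller difference than Duxbl2 alone. Their sum was 23.5, 20.96 and 27.6 CPM in wild type against 37.3, 32.8 and 38.5 CPM in the mutants, with means of 24.0 ± 3.34 and 36.2 ± 2.99 (SD, n = 3). The groups did not overlap, and the ratio of means was 1.51, against 2.19 for Duxbl2. The log2 fold change of the sum was 0.59 (SE 0.12). This sum was added after the data had been seen.

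**Figure D2:**
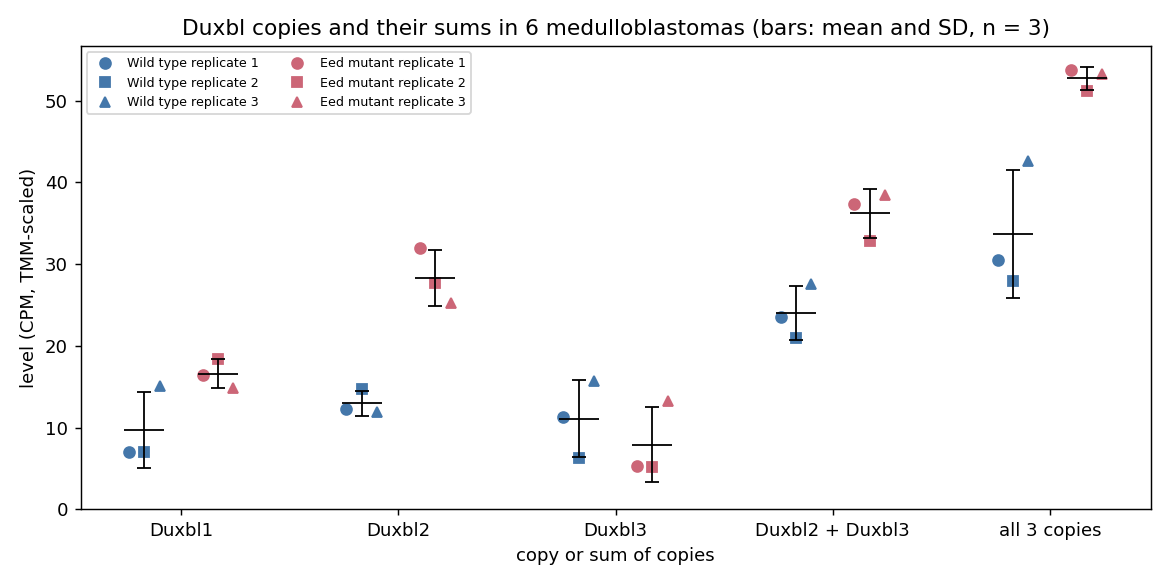
Level in CPM (vertical axis) of each Duxbl copy, of Duxbl2 and Duxbl3 summed and of all 3 copies summed, with 1 point per library and the mean and SD of 3 libraries per group. The mutants are all above the wild types for Duxbl2 and for both sums, while the groups overlap for Duxbl1 and Duxbl3.

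Ranked by TPM, the order of the copies was not the same in the 2 groups. In wild type the means were 14.7 ± 5.21 for Duxbl3, 11.6 ± 1.79 for Duxbl2 and 9.73 ± 5.42 for Duxbl1 (SD, n = 3), and each difference between neighbours in this order was smaller than the larger of their SDs. In the mutants the means were 23.6 ± 2.94 for Duxbl2, 16.5 ± 1.95 for Duxbl1 and 15.0 ± 4.62 for Duxbl3 (SD, n = 3). The difference between Duxbl1 and Duxbl3 was smaller than either SD there, and Duxbl2 was highest in each mutant library. Duxbl2 took 40.0%, 52.5% and 28.0% of the family's counts in wild type against 59.4%, 54.1% and 47.4% in the mutants. The share of Duxbl2 therefore overlapped between the groups, mutant replicate 3 being below wild-type replicate 2. Duxbl3 took 37.0%, 22.6% and 36.7% in wild type against 9.92%, 10.1% and 24.8% in the mutants, and Duxbl1 took 23.0% to 35.3% and 27.8% to 35.9%.

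The difference between Duxbl2 and Duxbl3 came down to a single pair of transcripts. Duxbl2-201 had 290, 352 and 273 estimated counts in wild type against 787, 677 and 626 in the mutants, a ratio of means of 2.29. Duxbl3-201, the same sequence with the 24-base 3′ addition, had 194, 91.5 and 288 counts in wild type. In the mutants it had 0.000672, 0.000869 and 202. In mutant replicates 1 and 2 the estimation thus put practically none of the pair's counts on Duxbl3-201, while in mutant replicate 3 it put 24.3% there. In wild type that share ran from 20.6% to 51.3%, so mutant replicate 3 lay inside the wild-type range. The pair together had 484, 443 and 561 counts in wild type against 787, 677 and 828 in the mutants, a ratio of 1.54 without overlap. The deposited files hold no reads, and whether the RNA itself ended at a different place was not tested.

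Duxbl1-201, which differs from that pair mainly at its ends, had 170, 155 and 329 counts in wild type against 331, 407 and 313 in the mutants. It made up 25.9% to 37.0% of the full-length counts in wild type against 27.4% to 37.6% in the mutants, so its share overlapped between the groups.

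**Figure D3:**
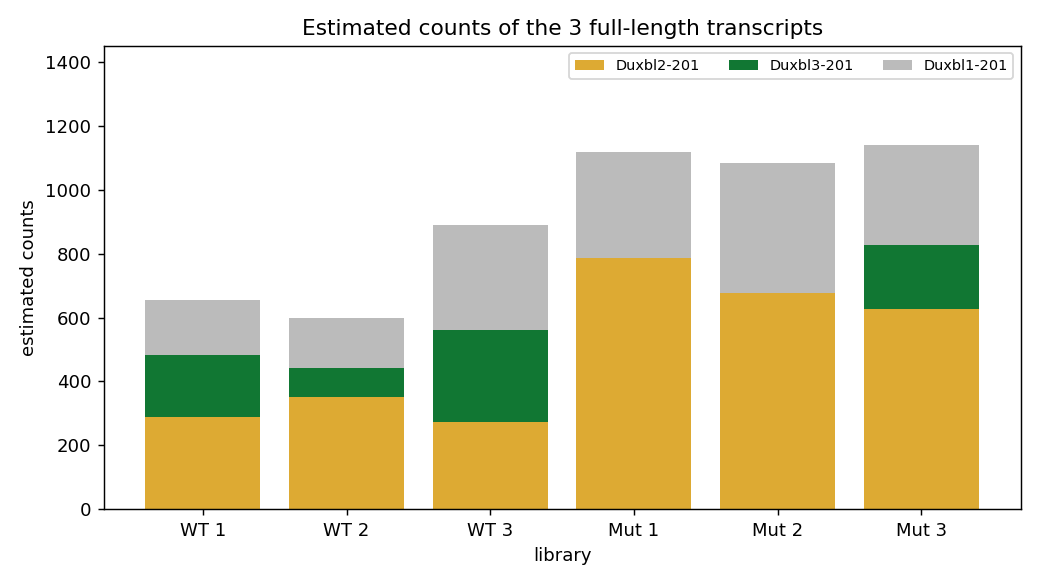
Estimated counts (vertical axis) of the full-length transcripts Duxbl2-201, Duxbl3-201 and Duxbl1-201, stacked for each of the 6 libraries. The Duxbl3-201 part is missing from mutant replicates 1 and 2, at 0.000672 and 0.000869 counts, whereas the stacked total is higher in each mutant than in each wild type.

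The transcript with the most sequence of its own was also higher in the mutants. Duxbl3-206, a 4-exon transcript with a partial coding sequence, has 315 words that occur in no other annotated transcript. It had 72.8, 45.7 and 82.8 estimated counts in wild type against 102, 90.8 and 99.3 in the mutants, with means of 67.1 ± 19.21 and 97.3 ± 5.69 (SD, n = 3). The groups did not overlap, and the ratio of means was 1.45, close to that of the whole family. Whether the same bases also stand, unannotated, in the other copies of the repeat was not examined, so these counts are named by transcript and not by copy.

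In the short, intron-retaining form the copy with groups apart was Duxbl1. Duxbl1-203, the only transcript of this form with words found in no other copy, had 9.58, 23.3 and 27.0 counts in wild type against 42.4, 50.0 and 55.4 in the mutants. All mutants were above all wild types, with a ratio of 2.47 at these low counts. The identical Duxbl2-202 and Duxbl3-202 each had 20.0, 21.2 and 26.9 counts in wild type against 28.6, 24.3 and 24.9 in the mutants, and overlapped. Duxbl2-204 is listed at 0 in all 6 libraries, although all of its 526 words occur in other Duxbl transcripts, so this 0 is an outcome of the division and not a count of reads.

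Summed over the copies, the main transcript forms had overlapping proportions in the 2 groups. The full-length form made up 80.7%, 81.2% and 79.3% of the family's counts in wild type against 79.8%, 81.4% and 80.9% in the mutants. The intron-retaining short form made up 6.12%, 8.90% and 7.20% in wild type against 7.11%, 7.40% and 7.46% in the mutants. Both shares overlapped between the groups. In counts, the full-length form was 1.56 times as high in the mutants, the intron-retaining form 1.55 times, the short 4-exon form 1.52 times and the 7-exon form 1.47 times. The first 3 had all mutants above all wild types. The 7-exon form had 24.5, 17.2 and 56.2 counts in wild type against 51.8, 45.1 and 46.8 in the mutants, and its groups overlapped because wild-type replicate 3 was above every mutant. Without that library its ratio was 2.29, and those of the other 3 were 1.70 to 1.78. Its share of the family's counts ran from 2.33% to 5.01% in wild type and from 3.32% to 3.70% in the mutants. The 2 noncoding forms together had fewer than 10 counts in each wild-type library and under 11 in each mutant library.

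**Figure D4:**
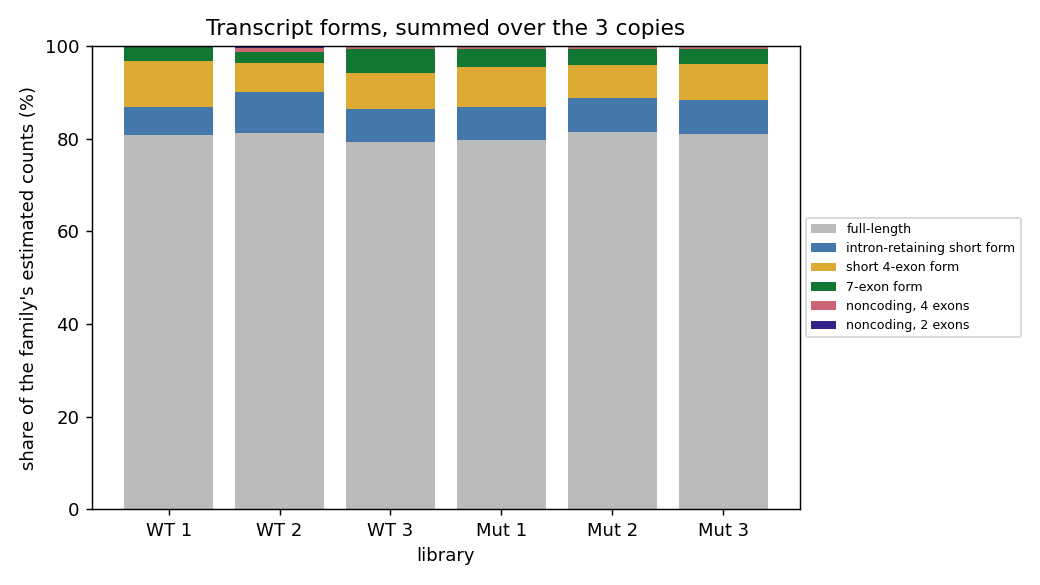
Share of the family's estimated counts (vertical axis, percent) taken by each transcript form, summed over the 3 copies, for each library. The full-length form takes 79.3% to 81.4% in all 6 libraries.

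A code in the names of the deposited files, of unstated meaning, is shared by wild-type replicate 2 with mutant replicates 1 and 2, and another by wild-type replicate 3 with mutant replicate 3. Wild-type replicate 1 has a code to itself. Within the first code the family was 1.88 times as high in the mutants, and within the second, with 1 library a group, 1.25 times. Duxbl2 was 2.03 and 2.12 times as high, and the sum of Duxbl2 and Duxbl3 1.67 and 1.40 times (ratios of CPM). Duxbl1 was 2.51 times as high within the first code and 0.984 times within the second, so its direction did not hold in both. Duxbl3 was 0.832 and 0.844 times as high. With the code as a term in the fit, the log2 fold change of the family was 0.65 (SE 0.16).

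Other genes are repeated with Duxbl in the same stretch, and 2 of these families were higher in the mutants as sums. The Plac9 copies (Plac9a, Gm9780 and Plac9b, on the minus strand), which encode a small secreted protein, together had 1.81, 2.99 and 4.64 CPM in wild type against 7.26, 8.34 and 6.62 CPM in the mutants. The groups did not overlap, the ratio of means was 2.35 and the log2 fold change 1.23 (SE 0.32). Their summed counts were whole numbers to within 0.01 in all 6 libraries, so these reads were divided only among the 3 copies. The Tmem254 copies, which encode a membrane protein, together had 32.0, 42.1 and 48.0 CPM in wild type against 53.5, 50.2 and 56.9 CPM in the mutants. These groups did not overlap either, by a small margin, with a log2 fold change of 0.39 (SE 0.14), which was 0.25 without wild-type replicate 1. Within the same 0.01, the Tmem254 sum was a whole number in 0 of 6 libraries and the Duxbl sum in 1. Where a sum was not whole, some of its reads were also divided with transcripts of other genes, by an amount that was not measured. The Plac9 and Tmem254 sums were added after the data had been seen.

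As in Duxbl, the single copies of these families share most of their sequence. Plac9a, Gm9780 and Plac9b had 6, 8 and 44 words of their own, and Tmem254b and Tmem254c had 0. Tmem254a had 700 of its own among 2587. Its groups overlapped, at 3.425, 4.44 and 6.09 CPM in wild type against 5.14, 6.34 and 5.69 CPM in the mutants. Tmem254b had 22.6, 31.3 and 30.1 CPM in wild type against 38.02, 41.0 and 47.6 CPM in the mutants. Tmem254c had 6.01, 6.37 and 11.8 CPM in wild type against 10.3, 2.78 and 3.60 CPM in the mutants. As with Duxbl2 and Duxbl3, the copy with all mutants higher thus stood beside a near-identical copy whose mean was lower in the mutants.

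**Figure D5:**
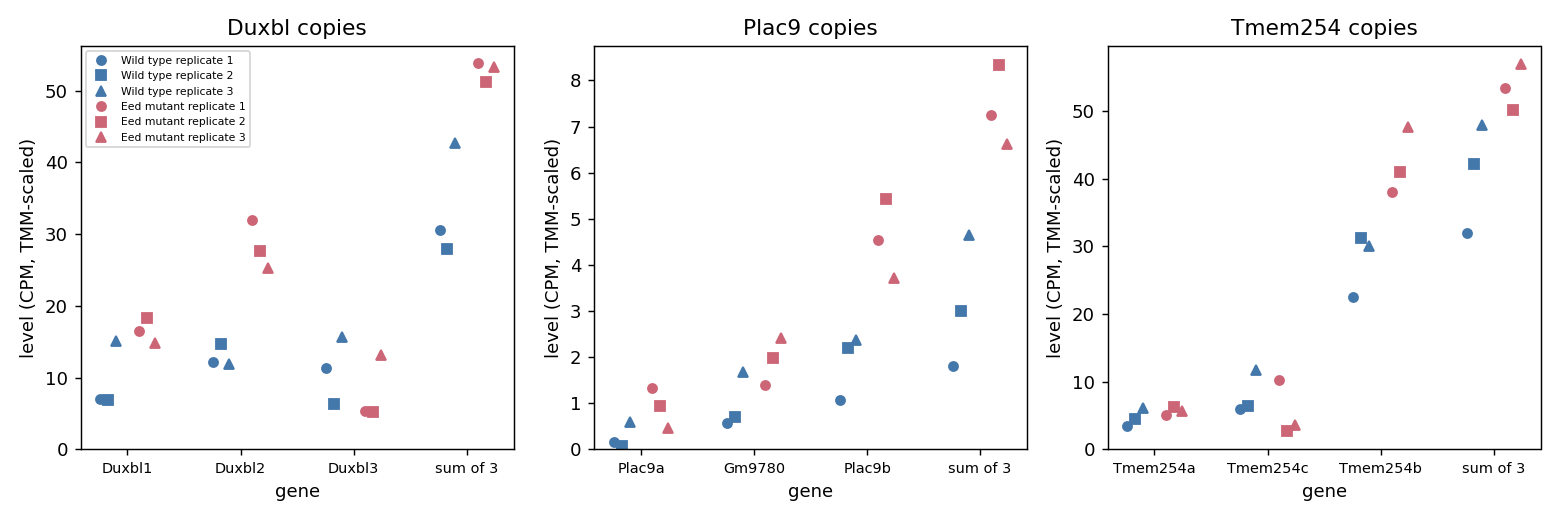
Level in CPM (vertical axes) of the Duxbl, Plac9 and Tmem254 copies and of the sum of each family, with 1 point per library. For each of the 3 sums the mutants lie above the wild types, whereas single copies such as Duxbl3 and Tmem254c have lower means in the mutants.

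The other homeobox family of the stretch had almost no counts. Cphx1, Cphx2 and Cphx3, which encode cytoplasmic polyadenylated homeobox proteins of the egg and early embryo, together had 0, 2 and 1 counts in wild type against 2, 1 and 0 in the mutants. These counts are below 3 counts per library, or 0.114 CPM, and no difference could be seen at this depth.

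Of all 43 other genes within 500 kb of a Duxbl copy, 19 were tested and 24 were below 1 CPM in each library. Under edgeR's quasi-likelihood test with Benjamini-Hochberg adjustment 0 of them passed in either direction, as was the case for 0% of all 19145 genes higher and 0% lower. At an unadjusted p under 0.05, 5 neighbours were higher and 0 lower, beside 9.29% and 8.78% of all genes. DESeq2 called 3 of the 19 higher and 0 lower, beside 2.96% and 2.26% of all 17679 genes with an adjusted p. All mutants were above all wild types for 6 of the 19 and below for 0, beside 13.1% and 11.9% of all tested genes. The 19 include all copies of Plac9 and Tmem254, whose reads were divided among near-identical copies. These are therefore not counts of independent genes. The median log2 fold change of the 19 was 0.18, and that of all tested genes was -0.01.

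The 3 neighbours that passed DESeq2 were Zmiz1, Plac9b and Tmem254b. Zmiz1, a transcriptional coactivator outside the repeat, had 518, 462 and 550 CPM in wild type against 808, 716 and 766 CPM in the mutants. It rose by 0.58 on the log2 scale (adjusted p = 5.892e-06 in DESeq2 and 0.1098 in edgeR), with all mutants above all wild types. Plac9b had a log2 fold change of 1.29 and Tmem254b of 0.59 (adjusted p = 0.00628 and 0.0119 in DESeq2, 0.152 for both in edgeR). With 44 and 0 words of their own, the values of these 2 copies rest on how shared reads were divided. Anxa11 and Dennd6a also had all mutants above all wild types, but passed neither test. Anxa11 had 2.93 ± 0.0319 CPM in wild type against 3.92 ± 1.02 CPM in the mutants (SD, n = 3). Dennd6a had 58.5 ± 6.93 CPM against 67.7 ± 2.16 CPM (SD, n = 3). The groups overlapped for Slmap, which encodes a sarcolemma-associated protein, at 96.0 ± 6.49 CPM in wild type against 107 ± 4.52 CPM in the mutants, and for Ppif, the mitochondrial cyclophilin, at 17.6 ± 1.87 CPM against 17.95 ± 0.737 CPM (SD, n = 3).

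Genes of the DUX programme were at or near 0. Of 33 listed genes of the cleavage embryo, 25 had no count in any library and 32 were below 1 CPM in each. Their summed level was 0.976 to 1.37 CPM in wild type against 1.07 to 1.22 CPM in the mutants. Of the 2 tested 0 passed edgeR, and the 1 with an adjusted p in DESeq2 did not pass there. Duxf3, a Dux family gene, had 0, 1 and 2 counts in wild type against 1, 4 and 2 in the mutants. The Duxbl family had 737 counts or more in each library. Of 30 other homeobox genes of the early embryo in the files, 26 were below 1 CPM in each library and 6 were tested. Among the 4 of these with an adjusted p in DESeq2, it called 1 lower and 0 higher, beside 2.26% and 2.96% of all genes. It was Otx1, a head and forebrain homeobox gene (log2 fold change -0.87, adjusted p = 0.0475 in DESeq2 and 0.223 in edgeR). Otx1 had 42.6 ± 17.9 CPM in wild type against 23.3 ± 4.98 CPM in the mutants (SD, n = 3). Its groups were barely apart, with 26.68 CPM in wild-type replicate 3 and 26.64 CPM in mutant replicate 1. The groups overlapped for Otx2, at 89.8 ± 18.1 CPM against 87.5 ± 5.19 CPM (SD, n = 3).

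Genes of the other settings in which Duxbl is known were measured as well. Of 28 germline genes, 22 were below 1 CPM in each library, 10 were tested and 0 passed edgeR. Of the 8 with an adjusted p in DESeq2, 0 passed there. Ddx4, the germ cell RNA helicase, had means of 1.16 ± 0.191 CPM in wild type against 0.689 ± 0.218 CPM in the mutants (SD, n = 3), with all mutants lower. Piwil2, a Piwi protein of the germline, had 0.467 ± 0.0873 CPM against 0.675 ± 0.0732 CPM (SD, n = 3), with all mutants higher. The median log2 fold change of the 10 tested was 0.24. Of 15 listed regulators of Dux, 13 were tested and 0 passed either test. Dppa2 and Dppa4, which activate Dux, had at most 5.24 and 1 counts in any library. Ncl, which helps to repress Dux, had 573 to 708 CPM in wild type against 769 to 841 CPM in the mutants, and it was one of 4 regulators with all mutants above all wild types, with the chromatin assembly subunits Chaf1a and Chaf1b. Pcgf6, a Polycomb-group subunit, had all mutants below, at 34.3 ± 1.22 CPM in wild type against 29.6 ± 2.36 CPM (SD, n = 3). Over all tested genes 13.1% and 11.9% had groups apart in these directions.

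Muscle genes moved with the groups beside the Duxbl family. Of 24 listed genes of myoblasts and myotubes, 20 were tested, DESeq2 called 11 higher and 0 lower, beside 2.96% and 2.26% of all genes, and edgeR called 0. At an unadjusted p under 0.05 edgeR had 16 higher and 0 lower, beside 9.29% and 8.78% of all genes. The median log2 fold change of the 20 was 2.18, and 1 of them, Chrng, passed the expression filter only through the mutants. Myh3, the embryonic myosin heavy chain, had 0.755, 0.757 and 5.78 CPM in wild type against 36.8, 15.2 and 120 CPM in the mutants (adjusted p = 0.00636 in DESeq2). Myod1, the myoblast determination factor, lay between 48.0 and 81.5 CPM in all libraries and overlapped between the groups, while Myf5 was at 0 in all 6 and Pax7 had 1 count in mutant replicate 1 only. The list summed to 147 to 231 CPM in wild type against 262 to 638 CPM in the mutants.

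Among the mutants the muscle sum was 314, 262 and 638 CPM, while the Duxbl family lay between 51.2 and 53.8 CPM. Among the wild types replicate 3 was highest in both the muscle sum and the Duxbl family. The sum is weighted to its most abundant members, and single members differed in their spread. In mutant replicates 1, 2 and 3 Myh3 had 36.8, 15.2 and 120 CPM and Actc1 20.1, 9.99 and 71.9 CPM. Myod1 had 48.0, 67.5 and 71.9 CPM there and Six4 2.28, 2.49 and 2.65 CPM. The spread of the sum therefore does not stand for that of each muscle gene. Of the other cell types, all 6 oligodendrocyte markers fell in DESeq2, beside 2.26% of all genes. Their summed level was 507, 1436 and 837 CPM in wild-type replicates 1, 2 and 3 against 326 to 400 CPM in the mutants. The Duxbl family had 30.6, 27.9 and 42.6 CPM in the same wild types, so the order of the 3 libraries was neither the same nor the reverse. Endothelial markers had 2 of 5 higher in DESeq2 (Pecam1 and Kdr), beside 2.96% of all genes, with sums of 79.3 to 107 CPM and 110 to 125 CPM. Dcn of 5 meningeal fibroblast markers and Csf1r of 5 microglial markers were lower in DESeq2, with list sums of 156 to 199 CPM against 104 to 213 CPM and 123 to 176 CPM against 105 to 139 CPM. Of 4 erythroid markers none passed, with sums of 51.1 to 221 CPM against 73.5 to 138 CPM. The part of these cell types in the Duxbl difference was not tested.

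The genes whose pattern was most like that of the Duxbl family over the 6 libraries were found by the root-mean-square difference in centred log2(CPM + 0.5). They were Adamtsl2 (0.07), Sdc1 (0.07), Gm11749 (0.08), Nid2 (0.08) and Rbpms2 (0.09 on that log2 scale). Gm11749 had only 0.113, 0.114 and 0.304 CPM in wild type against 0.691, 0.538 and 0.567 CPM in the mutants. At such levels the added 0.5 CPM shrinks differences. Its fitted log2 fold change was 1.73, against 0.65 for the Duxbl family. Sdc1, a cell-surface proteoglycan, had 8.72, 7.04 and 10.5 CPM in wild type against 14.3, 14.1 and 14.1 CPM in the mutants. Nid2, a basement membrane protein, had 11.3, 9.92 and 16.9 CPM in wild type against 18.8, 17.02 and 20.5 CPM in the mutants. In both genes wild-type replicate 3 was the highest wild type and replicate 2 the lowest, as in the Duxbl family. The likeness includes the difference between the groups, which chose the family, and is a description of these 6 libraries.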

How the data were processed

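Per the labels' protocols, total RNA went into Illumina libraries. Kallisto 0.43.1 is named in the submitters' processing notes, and the deposited files give an estimated count and a TPM for each transcript, per the file headers, in a separate file for each sample. The sources used here give neither strand nor read length. Kallisto divides reads that fit several transcripts, so the values of near-identical copies are estimates of a division.

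Estimated counts were summed per gene and rounded to whole numbers. Mutant and wild-type tumours were compared with edgeR 4.0.16 (TMM, default expression filter, quasi-likelihood test, Benjamini-Hochberg threshold 0.05, two-sided) in R 4.3.3, with DESeq2 1.42.0 and limma 3.58.1 as alternatives. CPM are scaled by TMM factors, and a positive log2 fold change means a higher level in the mutants. Family sums were fitted as 1 feature in place of their copies. The fit was tested on simulated data. The simulation drew counts for each gene separately, with no reads shared between copies, so it says nothing on how reads were divided among copies. GENCODE M21 supplied sequences and coordinates. The 31-base words of the Duxbl transcripts were compared with those of all M21 transcripts. Of the 131100 transcript identifiers in the files, 127421 were found in M21, and the rest were not searched for shared words. The RefSeq promoter table holds 0 of the 3 genes by name.

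The members and the 12 gene lists were chosen with earlier results of these data known. Named genes were the members, neighbours within 500 kb that have a mean of at least 1 CPM in a group, are homeobox genes or share a name stem, up to 4 non-overlapping members of each list, and the 5 genes most like the family; other genes named were chosen after their values were seen. Replicates differed beyond sampling noise and were all kept. Since nothing says that they came from separate animals, p-values refer to the spread between samples, which may be technical. Counting limits cover counting error only. The floor of 3 counts is per library.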

Additional observations from a re-analysis of the deposited data

How the results depend on the processing

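The log2 fold change of the Duxbl family lay between 0.53 and 0.85 over 16 settings, the reported one included, and that of Duxbl2 and Duxbl3 summed between 0.50 and 0.70. Leaving out each library gave 0.53 (without wild-type replicate 2) to 0.85 (without wild-type replicate 3) for the family, 0.58 to 1.24 for Duxbl1, 1.03 to 1.23 for Duxbl2 and -1.08 to -0.15 for Duxbl3. On the log2(TPM + 1) scale Duxbl2 was at 0.97 and Duxbl3 turned to 0.0512. Counts of genes depended on the test. Where edgeR called 0 genes (smallest adjusted p = 0.0808), DESeq2 called 524 higher and 399 lower, of them 17 and 9 list members, limma-voom called 1 higher, and edgeR with no expression filter called 3 higher. Leaving out each library gave 0 to 6 genes higher and 0 to 3 lower, with 2 and 2 without wild-type replicate 2 and 6 and 3 without mutant replicate 2, and 0 to 1 list members higher. The cause was not tested. With the replicate number as a block, edgeR called 189 genes higher and 84 lower, with 14 and 1 list members, and the family was at 0.67. Same-numbered samples deviated together with correlations of 0.23, 0.06 and -0.14, so the numbers were not taken as pairs. Duxbl2 has no word of its own, so its level rests on how reads shared with the other copies were divided.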

Other observations

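Between the Duxbl copies lie 2 unprocessed pseudogenes, Gm2260 (chr14:26016431-26025837) and Gm2274 (chr14:26156036-26163648), singled out after their values were seen. Gm2260 had 14.1, 4.99 and 8.48 estimated counts in mutant replicates 1, 2 and 3 and fewer than 0.01 in each wild-type library. Gm2274 had 0.306, 0 and 5.46 counts in wild type and 0 in each mutant. Both are below 1 CPM in every library. Their counts are estimates, and how much sequence they share with each other or with other transcripts was not measured.

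Among the other neighbours, Gm26772, a long noncoding RNA inside Zmiz1 on the opposite strand, had 0.679, 0.670 and 0.873 CPM in wild type and 2.06, 1.17 and 0.948 CPM in the mutants. It did not pass DESeq2 (adjusted p = 0.269) or edgeR (adjusted p = 0.246). Whether its exons overlap those of Zmiz1 was not tested.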
